A study of Mus musculus with 4 samples.

Results

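The transcripts of 10 DNA-binding factors of early T cell development were followed in thymic invariant natural killer T (iNKT) cells: Tcf7, Lef1, Sox4, Tox, Tox2, Myb, Bcl11b, Satb1, Ets1 and Bach2. They were picked by gene symbol, each matched 1 row of the count matrices, and together they are 10 of 31053 genes. iNKT cells are T cells with a nearly fixed receptor for lipids shown by CD1d. Untreated mice 8 to 9 weeks old were used, 2 of the strain labelled C57BL/6 and 2 Hivep3-/- mice, which carry a disrupted Hivep3 gene in every cell and had been backcrossed to C57BL/6. Thymocytes that bound a CD1d tetramer loaded with PBS57 were sorted as CD44low and CD44high cells and mixed 50:50, which fixed part of any share of cells. Each mouse gave 1 droplet library of 5' transcript ends (10x Genomics). The question was how the levels of these factors change over iNKT development and whether they differ where Hivep3 is disrupted.

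The HMG box is a DNA-binding fold that bends the helix, and 5 of the 10 proteins carry it: TCF-1 (from Tcf7), LEF-1, SOX4, TOX and TOX2. TCF-1 and LEF-1 bind the same short motif, recruit beta-catenin or Groucho corepressors, and drive T lineage commitment in the thymus. iNKT precursors arise among thymocytes positive for both CD4 and CD8, are selected by CD1d on such thymocytes, pass through stage 0 (CD24 high, CD44 low), proliferate, and mature into iNKT1, iNKT2 and iNKT17 cells that resemble helper T cells of types 1, 2 and 17. c-Myb, from Myb, keeps these thymocytes alive long enough to make the distal receptor rearrangement of iNKT cells, and SOX4, TOX and BACH2 are known for roles in thymocyte selection or in holding T cells back from effector programs. BCL11B locks T lineage identity, SATB1 folds chromatin loops at lineage genes, and ETS-1 supports receptor genes and survival.

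The genes lie apart in the genome, on mm10 (GRCm38) as annotated by GENCODE. Tcf7 (ENSMUSG00000000782) spans chr11:52252371-52283014 on the minus strand and Lef1 (ENSMUSG00000027985) chr3:131110471-131224356 on the plus strand. Sox4 (ENSMUSG00000076431) is a short gene at chr13:28948919-28953713, minus strand. Tox (ENSMUSG00000041272) lies at chr4:6686353-6991557, minus strand, and Tox2 (ENSMUSG00000074607) at chr2:163203125-163324170, plus strand. Myb (ENSMUSG00000019982) is at chr10:21124935-21160984, minus strand, and Bcl11b (ENSMUSG00000048251) at chr12:107910403-108003602, minus strand. Satb1 (ENSMUSG00000023927) lies at chr17:51736187-51833290, minus strand, Ets1 (ENSMUSG00000032035) at chr9:32636221-32757820, plus strand, and Bach2 (ENSMUSG00000040270) at chr4:32238804-32586108, plus strand. Tox and Bach2 share chromosome 4 with Hivep3 (chr4:119733784-120138045). The antisense gene Gm43352 overlaps the 5' end of Lef1, and antisense or same-strand genes of the matrices also overlap Tcf7, Sox4, Tox, Myb, Ets1 and Bach2, so reads there are uncertain unless strand was used in counting, which the sources used here do not state.

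Start regions from RefSeq on GRCm38.p6 were found for 8 of the 10 genes, Tox and Ets1 being the other two. Those of Lef1, Sox4, Myb and Bach2 are printed as 4 of the 6 transcripts that were highest in stage 0-like cells in each library; of the other two, Tox has no entry, and the stretches of Tox2, which was counted sparsely, are left out. Each run is on the gene's own strand, 5' to 3', and stops at the base before the annotated start, or for Sox4 before its exon begins. Capitals mark a TCF/LEF, MYB or ETS motif. The Lef1 stretch is chr3:131110177-131110296 and also lies in an exon of Gm43352, the Sox4 stretch is chr13:28953714-28953819, the Myb stretch is chr10:21160985-21161104, and the Bach2 stretch, chr4:32417315-32417434, precedes a start inside the gene.
Lef1: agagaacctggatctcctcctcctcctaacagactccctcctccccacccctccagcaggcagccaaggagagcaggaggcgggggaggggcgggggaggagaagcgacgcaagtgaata
Sox4: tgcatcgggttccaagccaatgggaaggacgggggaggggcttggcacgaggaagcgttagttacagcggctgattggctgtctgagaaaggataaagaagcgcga
Myb: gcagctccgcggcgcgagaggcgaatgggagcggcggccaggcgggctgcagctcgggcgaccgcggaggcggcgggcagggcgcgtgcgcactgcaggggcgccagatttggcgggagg
Bach2: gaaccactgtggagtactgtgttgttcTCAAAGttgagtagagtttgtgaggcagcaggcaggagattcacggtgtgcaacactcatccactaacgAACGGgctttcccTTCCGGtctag
The stretches of Lef1 and Myb are rich in G and C (64.2% and 79.2%) and hold no motif searched, and nor does that of Sox4. Bach2 differed, with a TCF/LEF motif (TCAAAG), a MYB motif (AACGG) and an ETS motif (TTCCGG) in its 120 bases. Over the 250 bases before each of 32851 mouse starts, on both strands, TCF/LEF letters (CTTTGA or CTTTGT) were in 27.6%, ETS letters (CCGGAA) in 12.0%, MYB letters (AACTG or AACGG) in 48.6% and E box letters (CAGCTG or CAGGTG) in 27.7%, so such matches are common. The window before the last annotated start of Lef1, inside the gene, held 3 TCF/LEF matches.

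The matrices held 4243 to 8374 barcodes and 31381738 to 48291764 unique molecular identifiers (UMIs) per library, of which 3651 to 7231 cells were kept with a median of 4596 to 6833 UMIs, the C57BL/6 libraries being shallower. Barcodes shared between any pair of libraries were at most 1.013% of the smaller one. C57BL/6 replicate 1 held 14609 Xist UMIs and no Y-linked UMI, and the other 3 libraries held 3568 to 4879 Y-linked UMIs, so leaving out that library also leaves animals of 1 sex. The study's results describe the C57BL/6 mice as female, while its methods say that both sexes were used. The Y-linked UMIs of C57BL/6 replicate 2 (4120, with 4 of Xist) go against the first of these for that mouse. Hivep3 itself was still counted in all libraries, at 38.5 and 36.4 counts per 1000000 UMIs (CPM) over all kept C57BL/6 cells and 101 and 68.0 CPM in Hivep3-/-; a 5' count does not tell whether the message was intact, so this does not check the labels. Cells fell into 15 clusters. The class called stage 0-like was named from 11 stage 0 markers, so finding all 11 in it is no check. They summed to 6373 to 6926 CPM there and to 306 to 1815 CPM in the other named classes. The stage 0-like class held 356 and 122 C57BL/6 cells and 375 and 413 Hivep3-/- cells. Cycling-like cells numbered 1279 and 426 against 225 and 381, iNKT2-like 1517 and 442 against 397 and 462, iNKT17-like 223 and 126 against 132 and 130, and iNKT1-like 2964 and 2002 against 2885 and 2231. Clusters 4, 8 and 12, with 1581, 872 and 106 cells, matched no class and enter only the sums over all cells.

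The 10 factors did not share 1 course through development. Lef1, Sox4, Tox, Tox2, Myb and Bach2 were highest in stage 0-like cells in 4 of 4 libraries. Averaged over libraries, Tcf7 and Bcl11b were highest in iNKT17-like and Ets1 in iNKT1-like cells, and Satb1 held no steady order. Cells of all 5 classes come from 1 clustering, which did not use the 10 genes themselves but used genes that move with them, so the order of classes is a description with no test. CPM is taken over the UMIs of a library's cells in a class, and it compares 1 gene across classes, not genes with each other. The CPM printed are unscaled. Scaling factors (TMM) were 1.12 to 1.28 in stage 0-like and 0.898 to 0.985 in iNKT1-like cells. Dividing by them lowers each log2 step from stage 0-like to iNKT1-like cells.

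**Figure D1:**
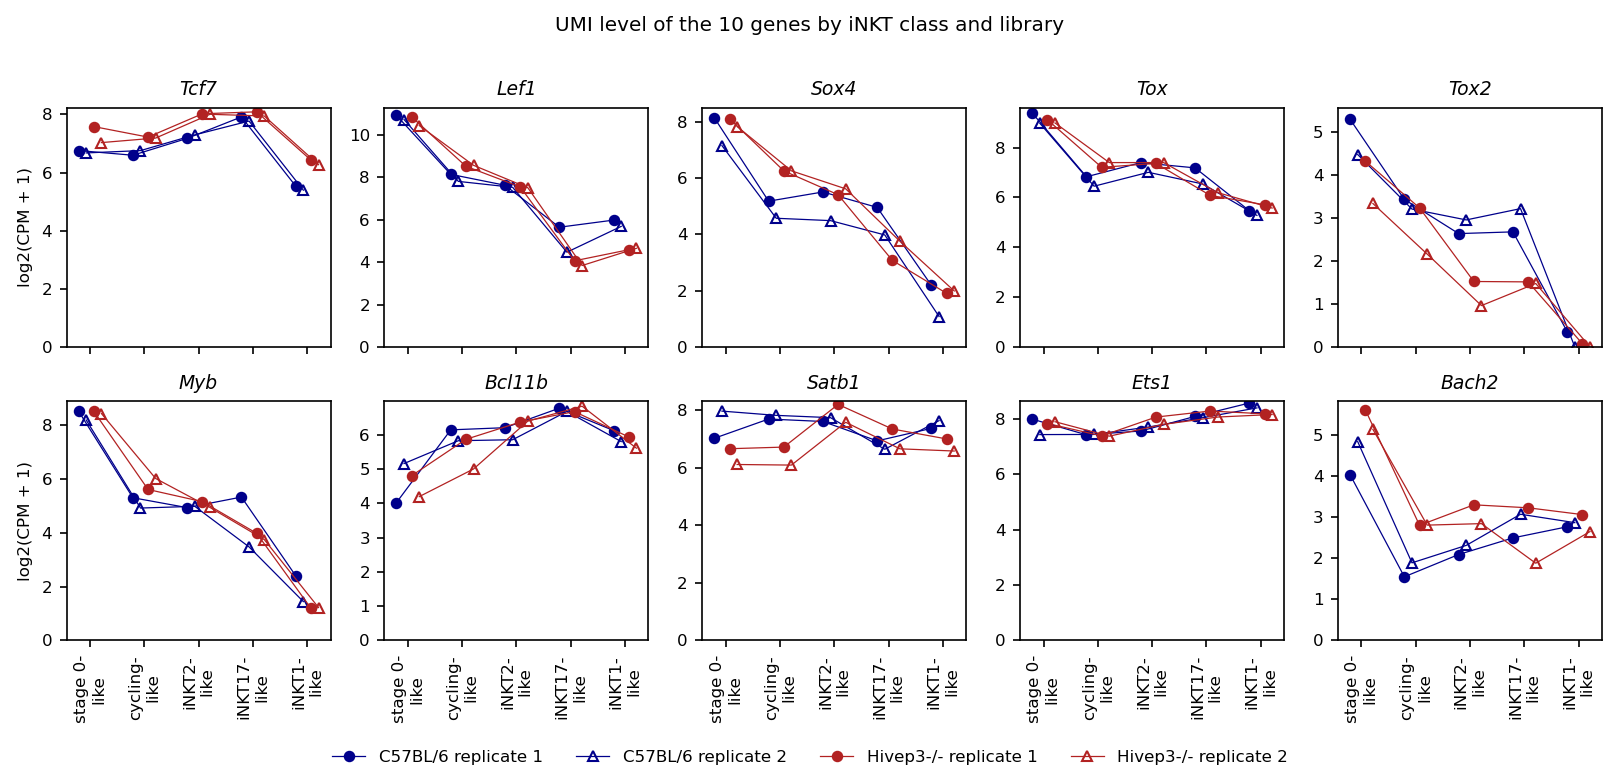
Level of each gene, as log2(CPM + 1), in the 5 named iNKT classes; each symbol is 1 library, joined by a line across classes, with filled circles for replicate 1, open triangles for replicate 2, blue for C57BL/6 and red for Hivep3-/-. Lef1, Sox4, Myb and Tox2 lie lower in iNKT1-like than in stage 0-like cells in all 4 libraries, while Tcf7 and Bcl11b peak in iNKT17-like cells on average.

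Lef1, whose product opens the T lineage program with TCF-1, was highest in the youngest cells. It stood at 1953 and 1705 CPM in the stage 0-like cells of C57BL/6 replicates 1 and 2 and at 1856 and 1401 CPM in Hivep3-/- replicates 1 and 2. Cycling-like cells held 224 to 380 CPM and iNKT2-like cells 182 to 198 CPM. The step down continued to 23.1 to 62.4 CPM in iNKT1-like and 13.3 to 49.3 CPM in iNKT17-like cells, a pair whose library ranges overlapped. Stage 0-like cells exceeded iNKT1-like cells of the same library by 5.56 ± 0.65 on the log2 scale (SD, n = 4). Unnamed cluster 8, led by Tnni1 and Htra3, lay between at 354 to 599 CPM.

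Myb fell further. Its stage 0-like level was 367 and 292 CPM in C57BL/6 and 366 and 346 CPM in Hivep3-/-, so the genotypes overlapped. It dropped to 29.3 to 64.0 CPM in cycling-like cells, 29.7 to 34.7 CPM in iNKT2-like cells and 1.29 to 4.29 CPM in iNKT1-like cells. The last values rest on 17 to 46 UMIs per library, and the log2 step from stage 0-like to iNKT1-like cells was 7.50 ± 0.79 (SD, n = 4).

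Sox4 went the same way. It was at 281 and 141 CPM in stage 0-like C57BL/6 cells and 274 and 226 CPM in Hivep3-/- cells. C57BL/6 replicate 2 was the low library there. In iNKT1-like cells it was nearly silent, with 11 to 53 UMIs per library or 1.11 to 3.54 CPM, a log2 step of 6.55 ± 0.34 (SD, n = 4).

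Tox, whose product is needed for CD4 lineage cells, kept more of its message. Stage 0-like cells held 669 and 503 CPM in C57BL/6 and 555 and 508 CPM in Hivep3-/-. The other classes ran from 86.5 to 168 CPM in cycling-like and 128 to 168 CPM in iNKT2-like cells, which overlapped, to 37.8 to 51.2 CPM in iNKT1-like cells. The log2 step from stage 0-like to iNKT1-like cells was 3.64 ± 0.25 (SD, n = 4).

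Tox2, a close relative of Tox, was counted sparsely. In stage 0-like cells it gave 60 and 17 UMIs in C57BL/6 (38.3 and 21.2 CPM) and 47 and 23 UMIs in Hivep3-/- (19.0 and 9.09 CPM). In iNKT1-like cells it gave 3 and 0 UMIs against 1 and 0, and a count of 0 in the 9892425 UMIs of C57BL/6 replicate 2 allows up to 0.303 CPM. No fold is given for that class.

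Bach2, a repressor that restrains effector programs, was scarce outside stage 0-like cells. It was at 15.3 and 27.5 CPM in stage 0-like C57BL/6 cells and 47.7 and 34.0 CPM in Hivep3-/- cells, from 22 to 118 UMIs a library. Between the 4 other classes the ranges of neighbours overlapped, with all values at 1.92 to 8.81 CPM. The log2 step over iNKT1-like cells was 2.23 ± 0.61 (SD, n = 4).

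Tcf7 did not follow Lef1, its partner in motif and fold. It was highest on average in iNKT17-like cells, at 240.2 and 217 CPM in C57BL/6 and 271 and 245 CPM in Hivep3-/-, followed by iNKT2-like cells at 143 and 156 against 259 and 256 CPM. Stage 0-like cells held 107 and 101 against 190.5 and 129.7 CPM, a range that overlapped that of cycling-like cells (95.6 to 148 CPM). iNKT1-like cells were lowest at 45.3 and 41.0 against 85.2 and 76.2 CPM, so stage 0-like cells exceeded them by 1.12 ± 0.24 (log2, SD, n = 4) where Lef1 gave 5.56. Taking stage 0 cells by a gate on Cd24a and Itm2a raised this step of Tcf7 to 2.26, on 14 to 67 cells a library. The scaling factors given above lower it.

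Bcl11b, the guard of T lineage identity, was lowest in stage 0-like cells, with 15.3 and 35.0 CPM in C57BL/6 and 27.1 and 17.4 CPM in Hivep3-/-. iNKT17-like cells held 102 to 114 CPM, and the log2 step from stage 0-like to iNKT17-like cells was -2.25 ± 0.62 (SD, n = 4). Ets1 was at 171 to 253 CPM in stage 0-like cells, 165 to 172 CPM in cycling-like cells and 283 to 378 CPM in iNKT1-like cells, whose range overlapped that of iNKT17-like cells. Satb1 was highest in stage 0-like cells in 1 of 4 libraries, C57BL/6 replicate 2, and each neighbouring pair of classes overlapped.

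Across the 20 sums of class and library, the genes most like each factor were sought by Pearson correlation of log2(CPM + 1) among 5314 genes averaging 20 CPM or more. These sums share libraries and clusters, so the values describe likeness and carry no p. Myb, Sox4 and Tox formed a set: Sox4 correlated at 0.972 with Myb and 0.965 with Tox, each among the 3 genes most like it, and Tox at 0.963 with Myb. Lef1 was most like Gm43352, the antisense gene at its own start (0.980), then Gsn (0.959) and Cldn10 (0.956). Myb was most like Basp1 (0.975) and Bach2 most like Arid5b (0.927). Tcf7 was most like Ssbp3 (0.904), Ifngr2 (0.894) and Emb (0.894), with none of the other 9 factors among them. Tox2 led with Dynlrb1 (0.943), Bcl11b with Tmem64 (0.931) and Ets1 with Vti1b (0.940), and the best match of Satb1 was Il4 at only 0.741.

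Genotypes were compared on UMIs added up within each library and class, by testing all expressed genes with the edgeR quasi-likelihood test, calling genes at a Benjamini-Hochberg adjusted p under 0.05. Log2 differences are Hivep3-/- minus C57BL/6, with the standard error (SE) of the fit, on 2 libraries against 2. TMM scaling set the median difference of all genes near 0; on unscaled sums it moved to 0.19 in cycling-like, 0.14 in stage 0-like, 0.12 in all kept, 0.11 in iNKT2-like and 0.07 in iNKT1-like and iNKT17-like cells, so the CPM of a library and the fitted difference are on different footings, and differences below read relative to the median gene. Without scaling, called genes in cycling-like cells split into 243 higher and 115 lower in place of 173 and 174, in stage 0-like cells 9 and 16 in place of 5 and 18, and in iNKT2-like cells 12 and 22 in place of 6 and 22. The sign of differences near 0 turned with it for Myb and Ets1 in stage 0-like, Bcl11b in iNKT17-like, Bach2 in iNKT1-like and Ets1 in all kept cells. With 1 mouse a library, p-values of the class tests rest on the spread between 2 mice of each genotype and on the spread edgeR shares over genes. Fewer cells of a subtype within a class and less RNA per cell cannot be told apart in such sums.

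**Figure D2:**
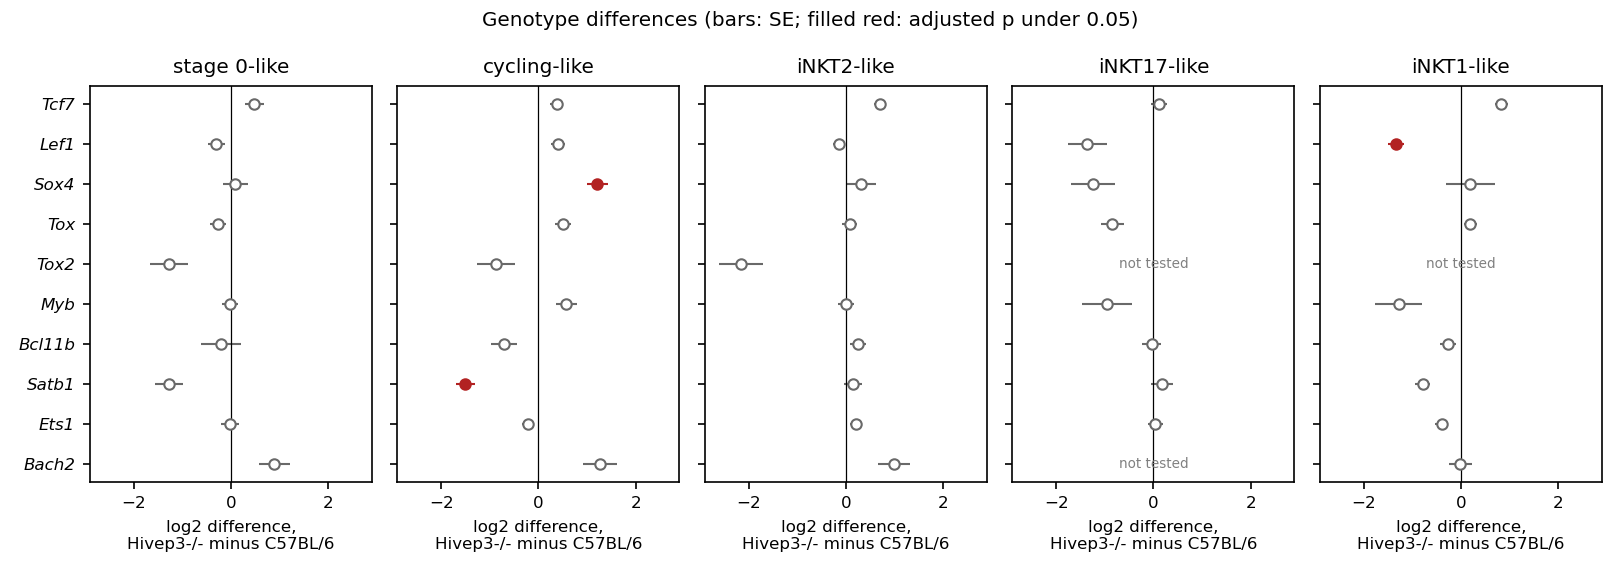
Log2 difference between Hivep3-/- and C57BL/6 with its SE for each gene in each class (edgeR, 2 libraries against 2); filled red points passed the threshold. Sox4 and Satb1 passed in cycling-like cells and Lef1 in iNKT1-like cells.

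In stage 0-like cells none of the 10 factors passed (edgeR), beside 0.259% of 8885 genes called. Of the 10, 4 had an unadjusted p under 0.05 (edgeR), beside 746 of the 8885 genes. DESeq2 called 1 factor, Satb1, beside 39 genes. Satb1 read 129 and 248 CPM in C57BL/6 and 99.9 and 68.0 CPM in Hivep3-/-, a fitted log2 difference of -1.27 (SE 0.29, edgeR adjusted p = 0.138). Both Hivep3-/- libraries lay below both C57BL/6 libraries, but C57BL/6 replicate 2 alone made much of the gap. The log2 difference was -0.73 without it, -1.72 without C57BL/6 replicate 1 and -1.52 without Hivep3-/- replicate 1. Tcf7 (0.49, SE 0.19) and Bach2 (0.89, SE 0.32) were higher in both Hivep3-/- libraries and Tox2 (-1.27, SE 0.39) lower, with edgeR adjusted p-values of 0.537, 0.461 and 0.331. Tox2 was -1.56 without C57BL/6 replicate 2, -1.84 without Hivep3-/- replicate 1 and -0.75 without C57BL/6 replicate 1. Bach2 was 1.30 without C57BL/6 replicate 2 and 0.42 without replicate 1, and Tcf7 was 0.23 without Hivep3-/- replicate 1. Of all genes tested, 30.2% had both Hivep3-/- libraries above both C57BL/6 libraries in CPM and 11.0% below, against 2 and 2 of the 10. Lef1, Myb, Tox, Sox4, Ets1 and Bcl11b differed by -0.30 to 0.09, none past the threshold, and single libraries moved them: without C57BL/6 replicate 1 and without replicate 2, Sox4 was 0.67 and -0.28, Bcl11b -0.81 and 0.42, and Ets1 0.29 and -0.23. Without the 19, 6, 14 and 28 cells that carried 2 or more markers of thymocytes positive for CD4 and CD8, again none passed.

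Cycling-like cells showed the widest shift, with Satb1 lower and Sox4 higher in Hivep3-/-. Satb1 stood at 205 and 224 CPM in C57BL/6 and 104 and 67.0 CPM in Hivep3-/-, without overlap, and fell by 1.504 on the log2 scale (SE 0.20, edgeR adjusted p = 0.0124). Sox4 stood at 35.2 and 22.7 CPM against 75.2 and 75.3 CPM and rose by 1.21 (SE 0.22, edgeR adjusted p = 0.0315). These were 2 of 10 factors, beside 3.37% of 10308 genes. Lef1 (0.40), Tox (0.50), Myb (0.57), Tcf7 (0.37) and Bach2 (1.26) were also higher in both Hivep3-/- libraries and Ets1 (-0.21) lower, none past the threshold; 40.5% of all genes lay above without overlap and 13.7% below. Bcl11b (-0.70, edgeR adjusted p = 0.223) overlapped. Its difference was -0.84 without C57BL/6 replicate 2, -1.15 without Hivep3-/- replicate 1 and -0.34 without Hivep3-/- replicate 2. Tox2 (-0.87, SE 0.39) overlapped too. In all, 8 of the 10 had an unadjusted p under 0.05 (edgeR), beside 1882 of the 10308 genes.

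Other markers moved with the cycling-like result. The 8 iNKT2 markers summed to 1405 and 1399.9 CPM in the cycling-like cells of C57BL/6 and 769.8 and 701 CPM in Hivep3-/-, with none at 0, and the 11 iNKT1 markers to 392 and 431 against 1762 and 1245 CPM. The 11 stage 0 markers summed to 1095 and 998 against 1511 and 1815 CPM. Clusters 11 and 13 made up 15.1% and 0.782% of the class in C57BL/6 replicate 1, 17.4% and 1.88% in replicate 2, 16.4% and 11.1% in Hivep3-/- replicate 1 and 31.8% and 4.20% in replicate 2. Within the largest cycling-like cluster alone, cluster 6, which is led by replication genes such as Cdc6 and Mcm3, both calls remained, Satb1 at -1.24 (SE 0.26, edgeR adjusted p = 0.0432) and Sox4 at 1.06 (SE 0.19, edgeR adjusted p = 0.0251). The part of the marker shift in these differences was not tested. Sox4 passed no more without Hivep3-/- replicate 1 (1.23) or 2 (1.15), and neither gene passed where clusters were built with no correction between libraries (Satb1 -1.10, Sox4 0.99).

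**Figure D3:**
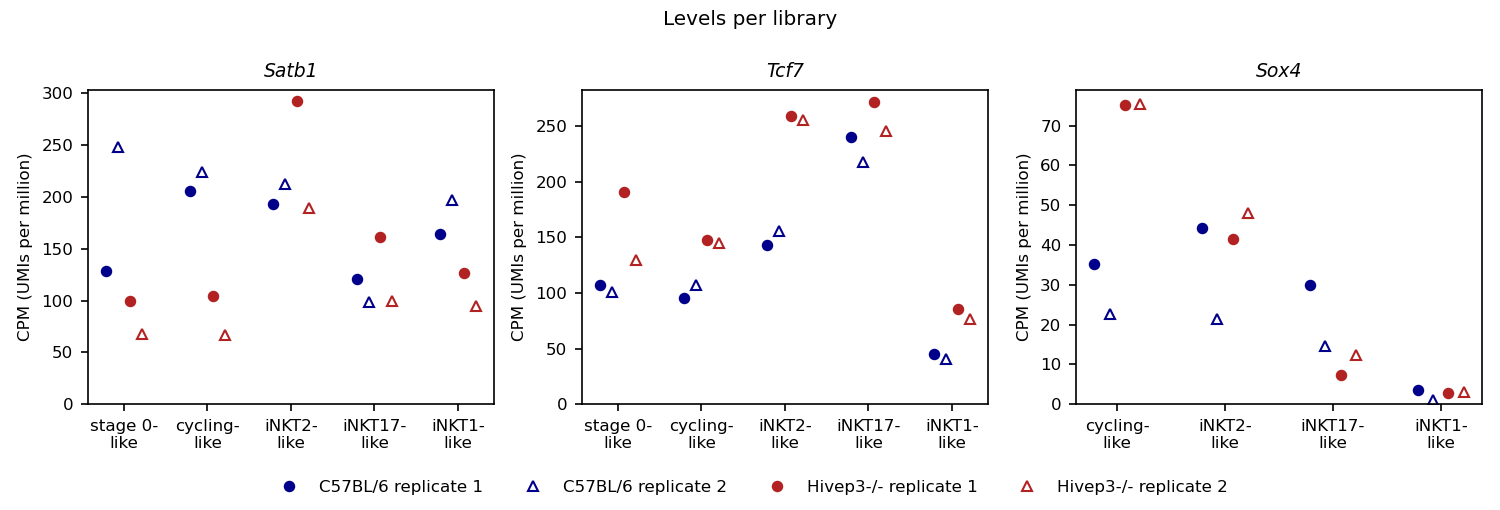
CPM of Satb1 and Tcf7 in 5 classes and of Sox4 in the 4 classes after stage 0, 1 point per library (circles replicate 1, triangles replicate 2; blue C57BL/6, red Hivep3-/-). In cycling-like cells Satb1 is lower in both Hivep3-/- libraries (104 and 67.0 CPM) and Sox4 higher (75.2 and 75.3 CPM); Tcf7 is higher in both Hivep3-/- libraries in each class, and passed the main test in none.

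In iNKT2-like cells none of the 10 passed (edgeR), beside 0.292% of 9584 genes called. Of the 10, 3 had an unadjusted p under 0.05 (edgeR), beside 897 of the 9584 genes. DESeq2 called 1 factor, Tcf7, beside 80 genes. Tcf7 was at 143 and 156 CPM in C57BL/6 and 259 and 256 CPM in Hivep3-/-, a log2 difference of 0.69 (SE 0.12, edgeR adjusted p = 0.108). Tox2 was lower at -2.15 (SE 0.45, edgeR adjusted p = 0.159), from 61 and 29 UMIs against 7 and 4 (5.21 and 6.75 against 1.87 and 0.946 CPM). Satb1, at 193 and 212 against 292 and 190 CPM, overlapped and was not lower (0.15, SE 0.18). Sox4 (0.32, SE 0.31) was 0.97 without C57BL/6 replicate 1 and -0.07 without replicate 2. Tox (0.08, SE 0.16) and Myb (0.00, SE 0.16) overlapped. Bach2, Ets1, Tcf7 and Bcl11b lay above without overlap and Tox2 below, where 29.8% and 13.2% of all genes did. Lef1 was level between genotypes, at 182 to 198 CPM and a difference of -0.14 (SE 0.12).

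In iNKT17-like cells 8 of the 10 had enough counts to be tested, Tox2 and Bach2 not. None passed (edgeR), beside 0.0658% of 7595 genes. Of the 8, 3 had an unadjusted p under 0.05 (edgeR), beside 424 of the 7595 genes. DESeq2 called 0 factors, beside 7 genes. Lef1 (-1.36, SE 0.40), Sox4 (-1.24, SE 0.45) and Tox (-0.84, SE 0.24) lay below without overlap and Tcf7 (0.11, SE 0.17) above, where 12.6% and 23.0% of all genes did. Lef1 rested on 64 and 23 UMIs against 17 and 15, and its difference moved from -0.63 without C57BL/6 replicate 1 to -1.81 without C57BL/6 replicate 2. Without the latter library Lef1, Tox, Myb and Sox4 passed, 4 of the 8, beside 68 of 8126 genes in that setting. Myb (-0.95, SE 0.51) was 0.33 without C57BL/6 replicate 1. Satb1 (0.17, SE 0.22), Ets1 (0.04, SE 0.16) and Bcl11b (-0.04, SE 0.19) overlapped.

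In iNKT1-like cells Lef1 was lower in Hivep3-/-. It stood at 62.4 and 50.6 CPM in C57BL/6 (670 and 501 UMIs) and 23.1 and 24.2 CPM in Hivep3-/- (447 and 327 UMIs), and it fell by 1.33 on the log2 scale (SE 0.17, edgeR adjusted p = 0.0230). It was 1 of 9 factors tested, Tox2 being too scarce, beside 0.644% of 10707 genes. Tcf7 moved the other way, from 45.3 and 41.0 to 85.2 and 76.2 CPM, 0.83 on the log2 scale (SE 0.13, edgeR adjusted p = 0.0557), just short of the threshold and called by DESeq2. Satb1 was at 164 and 197 against 127 and 94.4 CPM (-0.79, SE 0.16, edgeR adjusted p = 0.118), also called by DESeq2. Myb (-1.28, SE 0.48) and Ets1 (-0.39, SE 0.13) lay below without overlap and Tox (0.20, SE 0.14) above. Myb was -0.46 without C57BL/6 replicate 1. Bcl11b (-0.27, SE 0.16), Bach2 (-0.01, SE 0.24) and Sox4 (0.20, SE 0.49) overlapped, Sox4 being 1.28 without C57BL/6 replicate 1 and -0.40 without replicate 2. In all, 2 of 9 lay above and 4 below, where 25.5% and 12.0% of all genes did. Of the 9, 5 had an unadjusted p under 0.05 (edgeR), beside 891 of the 10707 genes. The Lef1 call was lost without C57BL/6 replicate 1 (-1.16, edgeR adjusted p = 0.0773) and without Hivep3-/- replicate 1 (-1.23, edgeR adjusted p = 0.1005), and the difference was -1.16 to -1.64 over the 15 alternatives.

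The makeup of the iNKT1-like class differed too. Cluster 0, led by Fgl2 and Klrb1c, was its largest cluster in each library, with 61.1% and 54.0% of the C57BL/6 cells against 38.2% and 40.1% of the Hivep3-/- cells, and late cluster 2, led by Ccl5 and Gzma, held 15.3% and 13.8% against 27.6% and 33.5%. The 8 iNKT2 markers summed to 402 and 405 CPM in the class against 208 and 189 CPM, and the 7 late iNKT1 markers to 3743 and 4364 against 6308 and 6860 CPM, with none at 0. Within cluster 0 alone Lef1 differed by -1.64 (SE 0.18, edgeR adjusted p = 0.0101), from 65.6 and 53.3 to 21.3 and 19.2 CPM. Lef1 was also lower in both Hivep3-/- libraries in cluster 2 (43.4 and 37.9 against 23.2 and 22.0 CPM), in late cluster 3 (52.2 and 41.1 against 23.6 and 29.996 CPM) and in interferon cluster 7 (86.5 and 75.7 against 23.4 and 39.4 CPM). Tcf7 was higher in both Hivep3-/- libraries in each of these 4 clusters. It stood at 46.5 and 46.5 against 80.7 and 78.8 CPM in cluster 0 and 52.0 and 55.3 against 122 and 102 CPM in cluster 2. In cluster 3 the values lay closer, at 37.8 and 25.6 against 53.3 and 40.4 CPM. The single clusters other than cluster 0 were not tested, and the share of all genes without overlap was not taken in any of them.

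**Figure D4:**
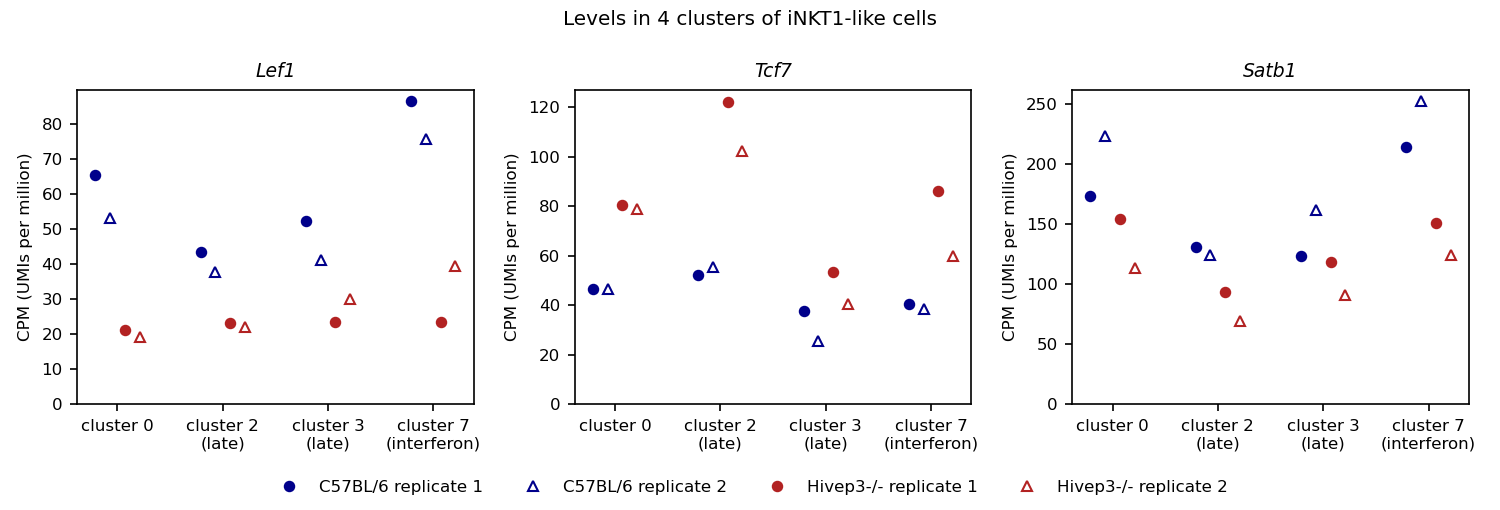
CPM of Lef1, Tcf7 and Satb1 in the 4 larger clusters of iNKT1-like cells, 1 point per library (circles replicate 1, triangles replicate 2; blue C57BL/6, red Hivep3-/-). Lef1 and Satb1 are lower and Tcf7 higher in both Hivep3-/- libraries in each cluster, and the share of all genes without overlap was not taken. In cluster 3 the closest Satb1 values are 124 (C57BL/6 replicate 1) and 118 CPM (Hivep3-/- replicate 1).

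Over all kept cells none of the 10 passed (edgeR), beside 0.765% of 12291 genes. Of the 10, 4 had an unadjusted p under 0.05 (edgeR), beside 1472 of the 12291 genes. DESeq2 called 2 factors, Satb1 and Tox2, beside 404 genes. Lef1 was at 262 and 181 CPM in C57BL/6 and 237 and 255 CPM in Hivep3-/- (0.06, SE 0.19), a sum that mixes classes in which it stood at levels from 13.3 to 1953 CPM. Stage 0-like cells were 4.92% and 3.34% of C57BL/6 cells and 8.16% and 9.91% of Hivep3-/- cells.

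Whether the genotype difference was the same size in the youngest and in the iNKT1-like cells was tested with an interaction term with library as a block, where 3.88% of 10905 genes passed. Lef1, Myb and Tox did so. Lef1 differed by -0.30 in stage 0-like and -1.33 in iNKT1-like cells, an interaction of 1.03 on the log2 scale (SE 0.12, edgeR adjusted p = 1.7e-08), and it passed in all 13 alternatives run (0.76 to 1.27). Myb differed by -0.02 and -1.28, an interaction of 1.27 (SE 0.30, edgeR adjusted p = 0.00545) that rests on 17 to 46 UMIs in each iNKT1-like sum and was not called without C57BL/6 replicate 1 (0.59), without Hivep3-/- replicate 1 (1.18) or by DESeq2 (1.19). Tox differed by -0.27 and 0.20, an interaction of -0.47 (SE 0.13, edgeR adjusted p = 0.0168), and it passed in 6 of 13 alternatives, not by DESeq2 nor without C57BL/6 replicate 1 or either Hivep3-/- library. For Tcf7 the interaction was -0.34 (SE 0.16, edgeR adjusted p = 0.311) and for Satb1 -0.45 (SE 0.16, edgeR adjusted p = 0.114). Neither passed, which does not show that their genotype difference was equal in both classes. Of the 10, 7 had an unadjusted p under 0.05 (edgeR), beside 1505 of the 10905 genes. At clustering resolutions 0.4 and 1.2 the interaction called 4 of the 10 factors, beside 564 and 469 genes.

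**Figure D5:**
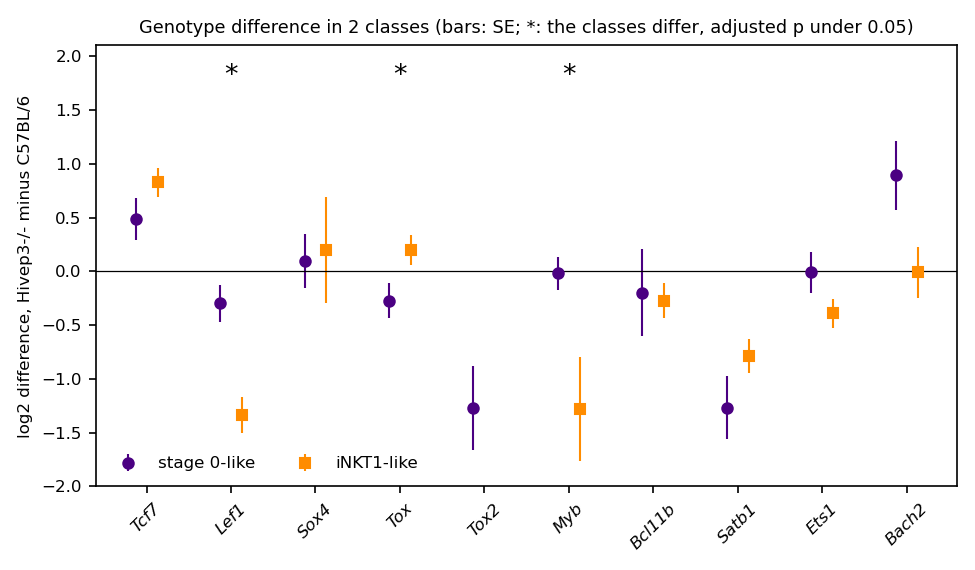
Log2 difference between Hivep3-/- and C57BL/6 with its SE in stage 0-like (circles) and iNKT1-like cells (squares), with a star where the interaction passed; Tox2 was not tested in iNKT1-like cells. Lef1 sits at -0.30 and -1.33, Myb at -0.02 and -1.28, and Tox at -0.27 and 0.20.

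Genes around these factors were counted from 4 lists. Of 19 family relatives, 7 to 10 were tested per class. Sox5, a SOX family member, rose in cycling-like cells (1.72, SE 0.25, edgeR adjusted p = 0.0166), the list's median being 0.33 beside 0.03 for all genes; none passed in the other 4 classes (edgeR), where 0 or 1 had an unadjusted p under 0.05 and DESeq2 called 0. Of 12 partners of beta-catenin and Groucho, such as Ctnnb1, Axin2 and Tle3, none passed in any class (edgeR), 0 to 3 had an unadjusted p under 0.05, DESeq2 called 0, and medians ran from 0.01 to 0.29. Of 17 genes of the early T cell network, Hes1, a target of Notch, fell in cycling-like cells. It fell by 1.97 on the log2 scale (SE 0.39, edgeR adjusted p = 0.0444), where the list's median was -0.09. It gave 145 and 41 UMIs in C57BL/6 and 5 and 13 in Hivep3-/-. These came from sums of unlike depth, 15641473 and 6684782 against 2857734 and 5191550 UMIs. Runx1, a partner of ETS-1 on DNA, fell by 1.30 in iNKT1-like cells, from 37.2 and 34.3 to 17.6 and 12.9 CPM (SE 0.17, edgeR adjusted p = 0.0244), where the median was -0.08 beside 0.00 for all genes. In stage 0-like, iNKT2-like and iNKT17-like cells none of this list passed (edgeR), 1 to 4 had an unadjusted p under 0.05 and DESeq2 called 0. In the interaction Runx1 (1.59, SE 0.17, edgeR adjusted p = 7.2e-10), Ikzf1 (0.61, SE 0.14) and Tcf3 (0.67, SE 0.16) passed upward and Hhex (-1.05, SE 0.32) downward. DESeq2 called 1 of this list there.

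Of 11 genes tied to TCF-1, LEF-1 or BACH2, 7 to 9 were tested per class. Ccr7, a chemokine receptor that the study itself singled out in these samples and so no independent evidence, fell by 0.77 in cycling-like cells (SE 0.14, edgeR adjusted p = 0.0339), where the median was 0.18. In the interaction Ccr7 (-1.81, SE 0.53) passed downward. Ets2, a relative of Ets1 from the list of family relatives, passed there upward (1.47, SE 0.28), and DESeq2 called 0 of those relatives in the interaction. In stage 0-like, iNKT2-like and iNKT17-like cells none of the 11 passed (edgeR), 2 or 3 had an unadjusted p under 0.05, and DESeq2 called 1, in iNKT2-like cells.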

How the data were processed

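Single-cell libraries of 2 C57BL/6 and 2 Hivep3-/- mice were analysed; groups and replicate numbers came from the labels. The deposited values were raw UMI counts per gene and barcode, not normalized, from the authors' Cell Ranger 3.1.0 run against mm10; other columns held only gene names and barcodes. Counting error shrinks with depth, and class sums held 800665 to 19388714 UMIs. Cells with at least 500 and under 4100 genes, at least 1000 UMIs and under 6% mitochondrial UMIs were kept. Scrublet (scanpy 1.11.5) marked only 1 to 4 cells a library and was judged to have failed, so doublets stayed in. Clusters came from 2000 variable genes and 30 components in R 4.3.3 with Seurat 5.3.0 after mutual nearest neighbour correction between libraries; the 10 genes, Hivep3, 26 genes named by the study, sex genes and T cell receptor segments were left out. Classes were named from marker lists and are rebuilt names. The genes, lists and tests were chosen with earlier results of these data known.

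UMIs were summed per library and class and tested with edgeR 4.0.16 (quasi-likelihood, filterByExpr, TMM, two-sided, Benjamini-Hochberg over all genes tested), after a check on simulated counts; SE is the log2 difference over the root of F. DESeq2 1.42.0, other scalings, filters, clusterings and left-out libraries were alternatives. The labels do not say whether same-numbered mice belong together. Promoters were RefSeq's. All 10 genes were named in each class, and from each list up to 5 called genes. The result of 1 gene of the lists is not reported here.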

Additional observations from a re-analysis of the deposited data

Results flagged for a closer look

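Of the 10 genes, 3 were singled out because the genotype difference itself differed between stage 0-like and iNKT1-like cells by the interaction test, the difference in stage 0-like minus that in iNKT1-like cells being 1.03 for Lef1, 1.27 for Myb and -0.47 for Tox on the log2 scale (edgeR). In iNKT1-like cells Lef1 stood at 62.4 and 50.6 CPM in C57BL/6 and 23.1 and 24.2 CPM in Hivep3-/-, and in stage 0-like cells at 1953 and 1705 against 1856 and 1401 CPM. Late iNKT1 markers and the share of late cluster 2 moved with the iNKT1-like difference, and their part in it was not tested. The C57BL/6 iNKT1-like cells were also shallower, with medians of 3408 and 4590.5 UMIs against 6487 and 5761. Groups of 2 libraries are too small to test for a library that stands apart.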

How the results depend on the processing

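Without a low-count filter 4 factors were called in all kept, 4 in cycling-like, 3 in iNKT1-like, 2 in iNKT17-like, 2 in iNKT2-like and 1 in stage 0-like cells, in place of 0, 2, 1, 0, 0 and 0. Over all genes it called 965, 1113, 470, 91, 392 and 101, in place of 94, 347, 69, 5, 28 and 23. DESeq2 called 1 in stage 0-like, 1 in iNKT2-like, 3 in iNKT1-like and 2 in all kept cells and 1 in the interaction (3 by edgeR). Over all genes DESeq2 called 39, 80, 150 and 404 in these sums and 103 in the interaction. At resolution 0.4, 1 was called in stage 0-like cells, beside 54 genes. In the interaction 4 factors were called at resolution 0.4 and 4 at resolution 1.2, beside 564 and 469 genes. With no correction between libraries 0 were called in cycling-like and 2 in iNKT1-like cells, beside 168 and 92 genes. In iNKT1-like cells 2 were called with the highest doublet scores removed, beside 80 genes. With the 10 genes eligible for clustering 2 were called there, beside 68 genes. Without scaling factors, an alternative chosen after seeing the data, 1 was called in iNKT2-like cells, beside 34 genes. Leaving out 1 library leaves 1 library in a group, so factors called in such fits are not counted here. The Lef1 call in iNKT1-like cells was lost without C57BL/6 replicate 1 or Hivep3-/- replicate 1. The cause was not tested. Stage 0 cells taken by a gate on Cd24a and Itm2a turned the Satb1 step over iNKT1-like cells from -0.21 to 0.19, and 6 factors were highest in stage 0-like cells in every other setting and 5 with the gate.

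Same-numbered mice share only a number. Deviations of same-numbered libraries correlated at 0.0009 to 0.182. With the replicate number as a block, 3 factors were called in iNKT1-like, 3 in cycling-like, 2 in iNKT17-like, 1 in stage 0-like and 0 in iNKT2-like and all kept cells. Over all genes the block called 653 in place of 347 in cycling-like, 140 in place of 23 in stage 0-like, 59 in place of 28 in iNKT2-like, 75 in place of 5 in iNKT17-like, 218 in place of 69 in iNKT1-like and 212 in place of 94 in all kept cells. No low-count filter gave the highest count of genes in cycling-like (1113), iNKT2-like (392), iNKT17-like (91), iNKT1-like (470) and all kept cells (965), and the gate the lowest in stage 0-like cells (0). In the interaction DESeq2 called 103 genes in place of 423. Too few counts kept Tox2 from being tested in iNKT1-like and iNKT17-like cells and Bach2 in iNKT17-like cells.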

Other observations

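Unnamed cluster 8, with 180, 32, 285 and 375 cells in C57BL/6 replicates 1 and 2 and Hivep3-/- replicates 1 and 2, entered the report's comparisons only through the sums over all kept cells. In it Lef1 was at 599 and 584 CPM in C57BL/6 and 389 and 354 CPM in Hivep3-/-, Tcf7 at 77.8 and 84.6 against 194 and 180 CPM, and Satb1 at 200.1 and 265 against 84.0 and 60.4 CPM. Sox4 was at 80.3 and 54.6 against 119 and 90.1 CPM. The groups did not overlap for any of these 4 genes. Of the other factors, Tox, Tox2 and Bcl11b were lower and Bach2 higher in Hivep3-/- without overlap, and Myb and Ets1 overlapped. The share of all genes without overlap was not taken in cluster 8 or in cluster 4, and neither cluster was tested alone. Cluster 4, led by Klra3 and Cxcr3, held Lef1 at 93.5 and 96.5 against 76.0 and 46.2 CPM and Tcf7 at 56.9 and 52.9 against 121 and 87.2 CPM.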
